A study of Homo sapiens with 4 samples.

Results

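The clustered histone genes are the 73 protein-coding genes of GENCODE release 44, of 20033 on chromosomes 1 to 22, X and Y, whose symbol is H1- followed by a number, or H2AC, H2BC, H3C or H4C followed by a number. The rule uses the gene name and no peak value. Chromosome 6 holds 55 of them and chromosome 1 holds 13. The other 5 lie elsewhere, among them H1-10 and H1-8 on chromosome 3 and H4C16 and H1-7 on chromosome 12. By type, 10 encode the linker histone H1, 17 encode H2A, 18 encode H2B, 13 encode H3 and 15 encode H4.

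H2A, H2B, H3 and H4 form the protein core around which nuclear DNA is wound, and H1 binds the DNA between cores. Most of the clustered genes are transcribed during DNA replication, lack introns, and give mRNAs that end in a stem-loop instead of a poly(A) tail. Many H2A and H2B genes lie head to head and share the promoter between them. Smad2 and Smad3 are phosphorylated by the TGFβ receptor, join Smad4 and bind DNA in the nucleus, where the Smad binding element contains GTCT or its reverse complement AGAC.

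Binding was measured by chromatin immunoprecipitation and sequencing (ChIP-seq) with an anti-GFP antibody in human breast cancer cells of the line MDA-MB-231. Each line carried Smad2 or Smad3 with a GFP-containing LAP tag on a bacterial artificial chromosome that holds the gene's own control elements. The endogenous Smads were still present, and the transfected cells were selected with Geneticin and sorted for GFP. The groups were LAP-Smad2 untreated, LAP-Smad3 untreated, LAP-Smad2 with 10 ng/mL TGFβ-1 for 2 h and LAP-Smad3 with 10 ng/mL TGFβ-1 for 2 h, with 1 library each, so that no difference between groups has a replicate check and none was tested. The lists hold 11266, 3511, 26828 and 62551 peaks in that order, and the number of reads behind each is unknown. Sample labels and list names disagree on which untreated library holds which Smad. At the SMAD2 gene 14 peaks came from the library labelled LAP-Smad3 untreated and 2 from that labelled LAP-Smad2 untreated, against 18 and 1 in the LAP-Smad2 and LAP-Smad3 libraries with TGFβ-1. At SMAD3 the counts were 0, 1, 1 and 52. The untreated pair is therefore named by its labels only, and no direction is drawn from it.

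Peaks near the histone genes had their summits, the position of highest signal, mostly inside the coding sequences. The windows below, of 150 bases on the coding strand (hg38, strand of the gene), surround the summit of the highest-ranked histone gene peak of the library labelled LAP-Smad2 untreated (H3C15, chr1:149852694-149852843), of the only one of the library labelled LAP-Smad3 untreated (H2AC15, chr6:27838065-27838214), of the highest-ranked one of LAP-Smad2 with TGFβ-1 (H2AC17, chr6:27892897-27893046) and of LAP-Smad3 with TGFβ-1 (H4C12, chr6:27831290-27831439). Capitals mark GTCT or AGAC.
H3C15: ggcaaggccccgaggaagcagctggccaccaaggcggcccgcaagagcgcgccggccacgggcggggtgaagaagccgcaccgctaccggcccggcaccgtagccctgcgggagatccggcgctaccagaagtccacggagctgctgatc
H2AC15: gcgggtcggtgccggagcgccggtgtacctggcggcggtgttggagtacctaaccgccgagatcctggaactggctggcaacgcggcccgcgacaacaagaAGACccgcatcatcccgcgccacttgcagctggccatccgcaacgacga
H2AC17: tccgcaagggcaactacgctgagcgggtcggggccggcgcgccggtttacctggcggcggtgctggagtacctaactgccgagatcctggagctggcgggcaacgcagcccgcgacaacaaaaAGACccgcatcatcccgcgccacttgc
H4C12: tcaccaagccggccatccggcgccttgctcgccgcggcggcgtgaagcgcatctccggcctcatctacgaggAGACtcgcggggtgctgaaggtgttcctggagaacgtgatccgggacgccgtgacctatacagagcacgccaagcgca

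The H3C15 window has a GC content of 72.7% and no GTCT or AGAC, while the H2AC15, H2AC17 and H4C12 windows have GC contents of 67.3%, 67.3% and 66.0% and 1 match each. The stretches between the 5′ ends of H2BC13 and H2AC13 (chr6:27807930-27808172) and of H2AC15 and H2BC15 (chr6:27838376-27838544) are shown next, on the plus strand, because both pairs had peaks in 3 lists and no summit fell between their 5′ ends. Capitals mark CCAAT, bound by NF-Y, and the TATA box TATAAA, on either strand.
H2BC13-H2AC13: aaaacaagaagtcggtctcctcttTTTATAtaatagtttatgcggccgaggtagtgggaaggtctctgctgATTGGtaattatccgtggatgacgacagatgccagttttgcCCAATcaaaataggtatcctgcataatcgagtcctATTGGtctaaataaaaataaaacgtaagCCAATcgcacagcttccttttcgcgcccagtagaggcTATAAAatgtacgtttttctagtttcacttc
H2AC15-H2BC15: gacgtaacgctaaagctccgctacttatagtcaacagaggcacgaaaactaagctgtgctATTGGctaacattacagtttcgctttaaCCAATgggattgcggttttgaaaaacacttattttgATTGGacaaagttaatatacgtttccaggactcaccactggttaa

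The H2BC13-H2AC13 stretch has a GC content of 40.7%, with 4 matches to CCAAT and 2 to TATAAA. The H2AC15-H2BC15 stretch has 39.6%, with 3 matches to CCAAT and 0 to TATAAA. Both promoter stretches thus hold less GC than any of the coding windows printed above.

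Within 1 kb of the gene span, 33 of 73 histone genes (45.2%) had a LAP-Smad2 peak with TGFβ-1, beside 45.3% of all protein-coding genes. For LAP-Smad3 with TGFβ-1 the count was 41 (56.2%), beside 60.1%. The libraries labelled LAP-Smad2 untreated and LAP-Smad3 untreated had 9 (12.3%, beside 15.9%) and 2 (2.74%, beside 6.84%). Counted over the whole span the histone genes were thus close to or below the genes at large, most of which are far longer.

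Within 1 kb of the 5′ end the histone genes stood above the genes at large in all lists but that labelled LAP-Smad3 untreated. LAP-Smad2 with TGFβ-1 had a peak at 30 histone genes (41.1%, Wilson 95% interval 30.5 to 52.6), beside 22.8% of all protein-coding genes. LAP-Smad3 with TGFβ-1 had one at 37 (50.7%, 39.5 to 61.8), beside 14.9%. The library labelled LAP-Smad2 untreated had one at 9 (12.3%, 6.62 to 21.8), beside 1.37%, and the library labelled LAP-Smad3 untreated at 2 (2.74%, 0.755 to 9.45), beside 3.20%. These intervals cover counting error only. Neighbouring histone genes share peaks, so that the genes are not independent and the intervals are too narrow.

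The histone genes are not especially GC-rich around their 5′ ends. The median GC content of 2 kb around the 5′ end was 49.2% for the 73 genes and 55.0% for the 19960 others, while the median GC content of 200 bases on the summit was 58.5% to 65.0% over the 4 lists. Each histone gene was therefore set beside all other protein-coding genes in the same GC bin of 2 percentage points. Of those, 13.8% had a LAP-Smad2 peak at the 5′ end with TGFβ-1, so that the histone genes had 2.98 times their share (2.22 to 3.81). For LAP-Smad3 with TGFβ-1 the GC-matched share was 15.5% and the ratio 3.27 (2.55 to 3.99). The ratio was 15.1 (8.10 to 26.7) for the library labelled LAP-Smad2 untreated, where 0.818% of GC-matched genes had a peak, and 1.69 (0.464 to 5.82) for the library labelled LAP-Smad3 untreated, where 1.63% did.

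Matching on single-exon structure as well gave lower ratios. Beside other single-exon genes with a span of at most 5 kb, matched on GC content in bins of 5 percentage points, the ratio was 2.00 for LAP-Smad2 and 2.88 for LAP-Smad3 with TGFβ-1, and it was 2.81 and 0.472 in the libraries labelled LAP-Smad2 and LAP-Smad3 untreated. Beside all other genes with a span of at most 5 kb, the ratios with TGFβ-1 were 3.21 and 3.44. On chromosome 6 alone the ratios to GC-matched genes were 3.91 for LAP-Smad2 and 3.53 for LAP-Smad3 with TGFβ-1, and on chromosome 1 alone 2.49 and 3.57.

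**Figure D1:**
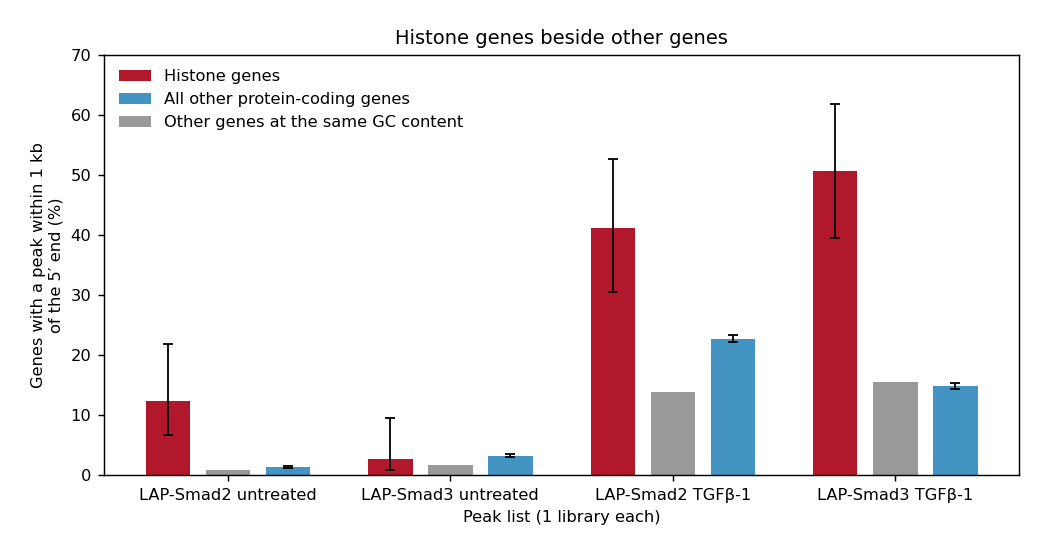
Share of genes with a peak within 1 kb of the 5′ end (percent, vertical axis) in each of the 4 lists, for the 73 histone genes, for other genes weighted to the same GC content and for all 19960 other protein-coding genes; black lines are Wilson 95% intervals for counting error. With TGFβ-1 the histone genes stand at 41.1% and 50.7%, above the GC-matched 13.8% and 15.5%.

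On chromosome 6 the genes fall into blocks of 34 (H2AC1 to H4C8), 5 (H2BC11 to H2AC12) and 16 (H2BC13 to H2BC17), taking a gap of 0.5 Mb between gene spans as a border. The block of 34 had LAP-Smad2 peaks with TGFβ-1 at 11 genes and LAP-Smad3 peaks at 14. The block of 16 had them at 12 and 14, and the block of 5 at 0 and 4. In the untreated libraries the block of 34 had peaks at 2 and 0 genes and the block of 16 at 4 and 2. By share of genes, the block of 16 was the most covered part of chromosome 6 in the lists with TGFβ-1. Its peaks in the library labelled LAP-Smad2 untreated, at H2AC13 and H2AC14, both had only repeated 50-mers.

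On chromosome 1 a block of 11 genes runs from H2BC18 to H2AC21 and a second of 2 holds H2AC25 and H2BC26. With TGFβ-1 the block of 11 had LAP-Smad2 peaks at 10 genes and LAP-Smad3 peaks at 8, and its untreated libraries had 2 and 0. Over all of chromosome 1, LAP-Smad2 with TGFβ-1 had a peak at 10 of 13 genes (76.9%), against 23 of 55 (41.8%) on chromosome 6. The difference, chromosome 6 minus chromosome 1, was -35.1 percentage points (Newcombe 95% interval -54.3 to -4.91, counting error only). For LAP-Smad3 with TGFβ-1 it was -11.0 points (-33.4 to 18.4). Leaving out genes of mostly repeated 50-mers, described next, removed genes on chromosome 1 only, where 5 remained. Counted over the span and 1 kb to each side, the chromosome 6 duplicates H4C11 and H4C12 had 19.7% and 18.6% and were kept. Their LAP-Smad2 peaks with TGFβ-1 nevertheless had only repeated 50-mers. With this removal the LAP-Smad2 difference turned to 1.82 points (-37.0 to 33.0). Its interval also included 0 when peaks had to overlap the span (-17.1 points), when they had to lie within 1 kb of the 5′ end or have their summit within 1 kb of the span (-21.5 points each), and when the lists were limited to the length of the shortest (-8.11 points).

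**Figure D2:**
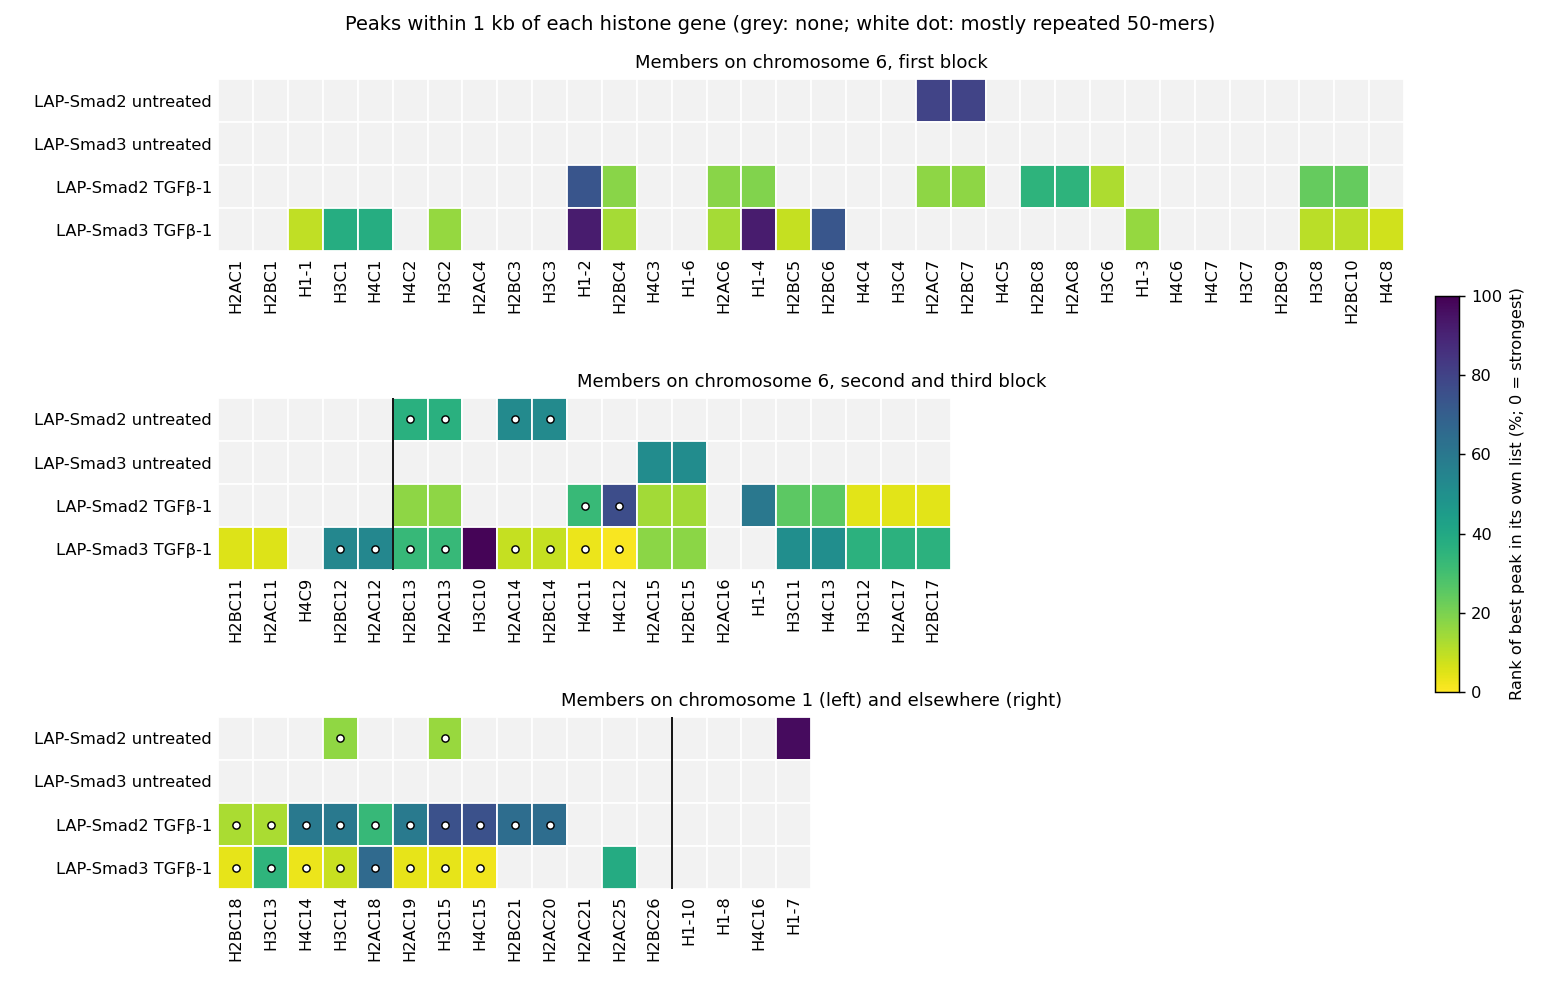
Histone genes in genome order (horizontal axis) and each peak list (vertical axis), coloured by the rank of its best peak within 1 kb as a percent of its own list, with 0 the strongest; grey means no peak, a white dot a best peak with at least 50% of its 50-mers repeated in hg38, and black lines separate blocks or chromosomes. The strongest ranks are in the LAP-Smad3 list with TGFβ-1 at H4C12 (0.956%), H4C15 (2.22%) and H4C11 (2.86%), all with repeated 50-mers.

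Several histone genes are exact duplicates in their coding sequence. H3C14 and H3C15 agree in all 408 coding bases, H2AC18 and H2AC19 in all 390, and H4C14 and H4C15, like H4C11 and H4C12, in all 309. Reads from such sequence fit more than 1 place, and how they were placed is not given in the sources used here. Over the span and 1 kb to each side, every 50-mer of H3C14 and H3C15 occurs elsewhere in hg38. The share is 99.5% for H4C14, 99.3% for H4C15, 90.4% for H2AC18, 90.3% for H2AC19, 71.5% for H2BC18 and 67.9% for H3C13. On chromosome 6 the shares are lower, the largest being 19.7% for H4C11 and 18.6% for H4C12.

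At least 50% of the 50-mers were repeated in 4 of 6 histone gene peaks of the library labelled LAP-Smad2 untreated, in 0 of 1 of that labelled LAP-Smad3 untreated, in 9 of 24 of LAP-Smad2 with TGFβ-1 and in 21 of 46 of LAP-Smad3 with TGFβ-1. Of all peaks in those lists, 64.2%, 42.0%, 38.0% and 49.7% were of this kind. In the 3 lists with more than 1 histone gene peak, such peaks were about as frequent at the histone genes as in the list at large. Counting only the other peaks, 3, 2, 21 and 27 histone genes kept one. All 21 LAP-Smad2 genes were then on chromosome 6, as were 26 of the 27 LAP-Smad3 genes. The same removal was not made for the other protein-coding genes, so these counts have no background share beside them.

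When all lists were limited to their 3511 highest-ranked peaks, the length of the shortest, LAP-Smad3 with TGFβ-1 kept 8 histone gene peaks, and 7 of them had mostly repeated 50-mers. So did 82.1% of all 3511, so that the repeated sequence of the strongest peaks was not a mark of the histone genes. LAP-Smad2 with TGFβ-1 kept 3, of which 1 did, beside 49.3% of all 3511. Whether read placement raised these peaks was not tested.

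The summit lay in the coding sequence for 22 of the 24 LAP-Smad2 peaks with TGFβ-1 (91.7%, 74.2 to 97.7) and for 31 of the 46 LAP-Smad3 peaks (67.4%, 53.0 to 79.1). It did so for all 6 peaks of the library labelled LAP-Smad2 untreated and for the 1 peak of that labelled LAP-Smad3 untreated. Coding sequence makes up 8.97% of the searched regions. A few genes have annotated spans that run far past the coding exon, among them H2BC4 with 37610 bases and H2BC18 with 29685, and 6 LAP-Smad3 peaks lay in such spans far from any histone coding sequence. With the 60 genes whose span is at most 5 kb, coding sequence made up 17.9% of the regions and held 90.9% of the LAP-Smad2 summits and 76.7% of the LAP-Smad3 summits. At 945 other single-exon genes of that size it made up 26.0% and held 70.7% and 48.7%. Summits in coding sequence were thus common at short single-exon genes in general.

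Summits were most frequent between 100 and 199 bases after the start codon, with 9 of LAP-Smad2 and 13 of LAP-Smad3 with TGFβ-1. The median GC content of the histone genes was 44% in the 100 bases before the start codon and 62.0% in the first 100 bases after it, and it was 45.0% again in the bin from 400 to 499 bases after the start codon. From 1 to 300 bases before the start codon there was 1 summit in the 4 lists together, at H4C15 (15 bases before, LAP-Smad3 with TGFβ-1). The remaining upstream summits lay farther out, as at H2BC10, where LAP-Smad2 and LAP-Smad3 with TGFβ-1 had a summit 638 and 687 bases before the start codon, and at H4C8, where LAP-Smad3 had one 311 bases before.

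**Figure D3:**
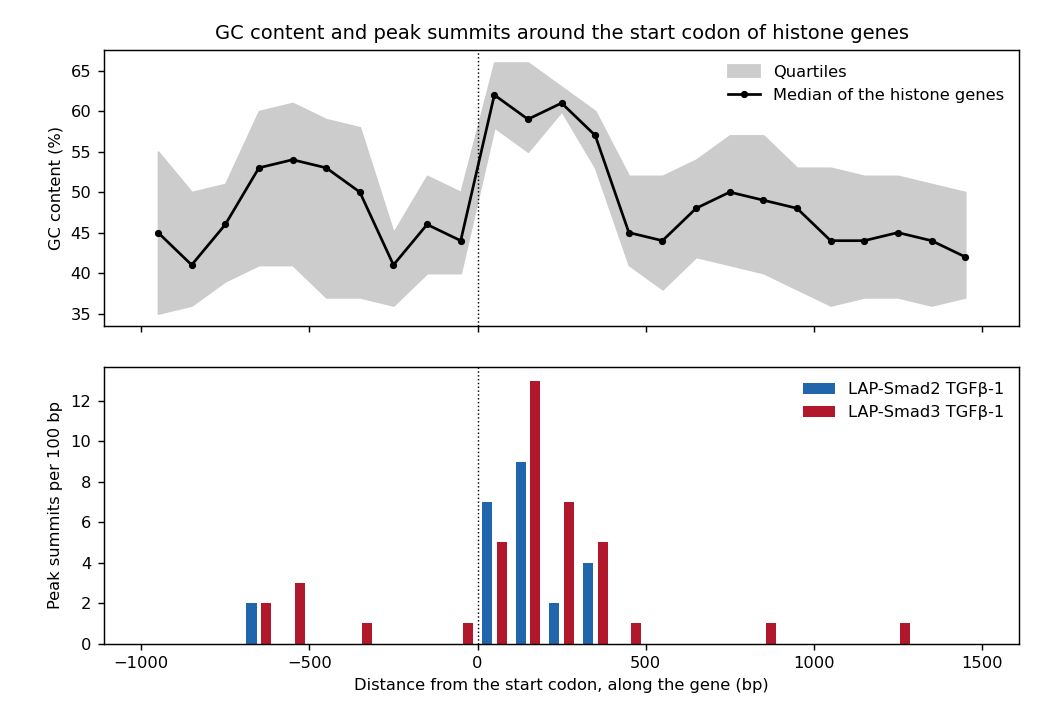
Top, GC content (percent) in bins of 100 bases along the histone genes, with the distance from the start codon on the horizontal axis; the line is the median of 73 genes and the band spans the quartiles. Bottom, peak summits per bin with TGFβ-1; the summits crowd in the bins from 0 to 399 bases, where the median GC content is 57.0% to 62.0%.

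The 12 head-to-head H2A-H2B pairs have 169 to 250 bases between their 5′ ends. The GC content of these stretches had a median of 41.5% (38.3 to 48.9), against a median of 61.6% in the coding sequences of the same genes. LAP-Smad2 with TGFβ-1 had peaks at 7 pairs and LAP-Smad3 at 8, and the libraries labelled LAP-Smad2 and LAP-Smad3 untreated at 3 and 1. No summit fell between the 5′ ends in any of the 4 lists, while 7, 11, 3 and 1 summits, in that order, lay in the coding sequence of either gene.

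At the H2BC13-H2AC13 pair the lists placed their summits differently. The library labelled LAP-Smad2 untreated had its summit in H2AC13 (fold enrichment over local background 7.34, in a peak with repeated 50-mers), and LAP-Smad2 with TGFβ-1 in H2BC13 (4.01). LAP-Smad3 with TGFβ-1 had one in each, with fold enrichments of 4.90 in H2BC13 and 5.12 in H2AC13. At H2AC15-H2BC15 the library labelled LAP-Smad3 untreated (3.94) and LAP-Smad2 with TGFβ-1 (4.63) had their summits in H2AC15, and LAP-Smad3 with TGFβ-1 in H2BC15 (6.37). Both genes of these pairs are therefore counted in 3 lists although single peaks lay over 1 gene.

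The other pairs followed the same layout. H2AC7 had a summit with TGFβ-1 in LAP-Smad2 (fold enrichment 4.01) and another in the library labelled LAP-Smad2 untreated (4.50). H2BC7 was reached by the same peaks. H2AC14, the partner of H2BC14, had one in LAP-Smad3 with TGFβ-1 (6.60) and one in the library labelled LAP-Smad2 untreated (6.43), both mostly of repeated 50-mers. H2AC17, the partner of H2BC17, carried the highest-ranked LAP-Smad2 peak with TGFβ-1 (5.25), which also lay within 1 kb of H3C12. LAP-Smad3 had 2 peaks there, 5.40 over H2AC17 and 5.24 over H2BC17. H2AC6, the partner of H2BC4, had summits of both (4.53 and 6.38). H2AC8, with H2BC8, had a LAP-Smad2 peak (3.95), and H2BC11 with H2AC11 (7.16 and 5.60) and H2BC12 with H2AC12 (4.77) had LAP-Smad3 peaks. H2BC21 with H2AC20 on chromosome 1 had a LAP-Smad2 peak (4.04), and at H2AC25 with H2BC26 the only peak, of LAP-Smad3, lay 4864 bases past the H2AC25 start codon (5.52). No list had a peak at H2AC1 and H2BC1.

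With TGFβ-1, 25 histone genes had peaks of both Smads, 8 of LAP-Smad2 only, 16 of LAP-Smad3 only and 24 of neither. The 25 were 75.8% of the LAP-Smad2 genes and 61.0% of the LAP-Smad3 genes, beside 75.3% and 56.7% over all protein-coding genes, so that sharing by gene was near the background. At 23 of the 25 genes the peaks themselves overlapped. Of the 24 LAP-Smad2 histone gene peaks, 16 (66.7%) overlapped a LAP-Smad3 peak, beside 24.5% of the whole list. Of the 46 LAP-Smad3 peaks, 16 (34.8%) overlapped a LAP-Smad2 peak, beside 10.6%. The overlapping peaks include some of mostly repeated 50-mers, as at the duplicates H3C14 and H3C15 and at H4C11 and H4C12. Such duplicates are counted at both genes, and the overlap was not recounted without them. In the 16 overlapping pairs the summits lay 15 to 312 bases apart, with a median of 59.0.

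Over all 4 lists, 23 histone genes had a peak in none, 21 in 1, 23 in 2 and 6 in 3, and none had a peak in all 4. The 6 were H3C14, H3C15, H2AC13, H2BC13, H2AC15 and H2BC15. H3C14 and H3C15 are duplicates, and the others are head-to-head pairs that share peaks. The same counts were not made over all protein-coding genes, so whether the histone genes differ from genes at large in this was not tested.

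Of 10 linker histone genes, 3 had a LAP-Smad2 peak and 4 a LAP-Smad3 peak with TGFβ-1, beside 45.3% and 60.1% of all protein-coding genes. On chromosome 6 these counts were 3 of 6 and 4 of 6, beside 23 and 32 of the 55 histone genes there. With TGFβ-1, H1-2 and H1-4 had peaks of both Smads, with fold enrichments of 3.70 and 4.32 for LAP-Smad2 and 3.79 and 3.79 for LAP-Smad3. H1-5 had 2 LAP-Smad2 peaks (3.33 and 3.21), and H1-1 (7.17) and H1-3 (6.62) had LAP-Smad3 peaks. Of the 5 genes outside the clusters, H1-7, a testis linker histone, had 1 peak in the library labelled LAP-Smad2 untreated (4.03, at 97.1% of the list's ranks), and H1-8, H1-10 and H4C16 had none in any list.

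Among H3 genes, 6 of 13 had peaks of both Smads with TGFβ-1, 1 of LAP-Smad2 only, 3 of LAP-Smad3 only and 3 of neither. Over all protein-coding genes, 6826 of 20033 had peaks of both. H3C15 had fold enrichments of 8.18 in the library labelled LAP-Smad2 untreated, 3.45 in LAP-Smad2 and 6.13 in LAP-Smad3 with TGFβ-1, and its duplicate H3C14 had 7.22, 3.61 and 5.56. Both duplicates thus had peaks in the same lists, and neither had a peak in the library labelled LAP-Smad3 untreated. Reads of their shared sequence fit both places, so that the duplicates do not count as separate observations. H3C13 had 4.88 and 4.50 with TGFβ-1. On chromosome 6, H3C6 had a LAP-Smad2 peak in unrepeated sequence (4.66), and H3C11, which shares its peaks with H4C13, had 3.88 for LAP-Smad2 and 4.24 for LAP-Smad3. H3C8 had a LAP-Smad2 summit in its coding sequence (3.83), and it shares with H2BC10 the upstream peaks of both Smads (4.03 and 6.21).

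Of 15 H4 genes, 5 had peaks of both Smads with TGFβ-1, 0 of LAP-Smad2 only, 2 of LAP-Smad3 only and 8 of neither, and 0 had a peak in either untreated library. The strongest histone gene peaks of LAP-Smad3 with TGFβ-1 were nevertheless at H4 genes, H4C12 (fold enrichment 9.57, −log10 q 15.8), H4C15 (8.97, 11.7), H4C14 (8.44, 10.9) and H4C11 (8.20, 10.9), all in duplicated sequence. LAP-Smad2 had 3.58 at H4C11 and 3.07 at H4C12, and it reached H4C14 and H4C15 only through the peaks over the neighbouring H3C14 and H3C15. For comparison, 6 of 17 H2A and 6 of 18 H2B genes had peaks of both Smads, and 4 of each type had neither. Over all protein-coding genes, 6826 of 20033 had peaks of both. By list, 33.3% of H4 genes had a LAP-Smad2 peak and 46.7% a LAP-Smad3 peak with TGFβ-1, beside 45.3% and 60.1% of all protein-coding genes.

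**Figure D4:**
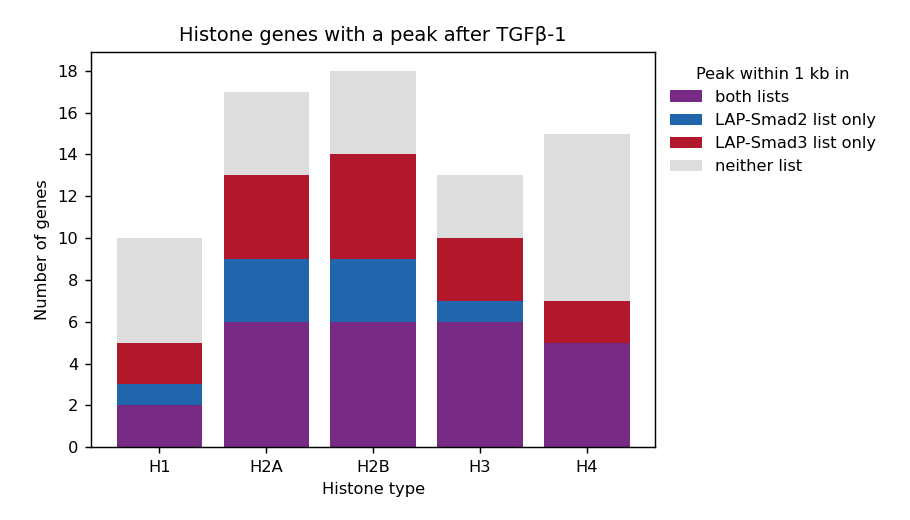
Number of genes of each histone type (vertical axis) with a peak within 1 kb of the gene span with TGFβ-1 in both lists, in the LAP-Smad2 list only, in the LAP-Smad3 list only or in neither. H4 has the largest grey part, with 8 of 15 genes in neither list, and H1 has 5 of 10. Genes in neither list were not counted over all protein-coding genes. Over all protein-coding genes, 6826 of 20033 had a peak in both lists.

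The remaining chromosome 1 genes with peaks were H2AC18, with a LAP-Smad2 summit 671 bases before its start codon (fold enrichment 4.04) and LAP-Smad3 summits in the coding sequence (3.64) and upstream (4.60), H2AC19, with 3.72 and 7.50 in its coding sequence, and H2BC18, with 4.53 and 8.28. H2AC21 and H2BC26 had no peak in any list.

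In fold enrichment the histone gene peaks were near the middle of their lists. By q-value they ranked above it in all lists but that labelled LAP-Smad3 untreated. With TGFβ-1 the median fold enrichment was 3.98 for LAP-Smad2 (3.07 to 5.25), with a list median of 3.98, and 5.46 for LAP-Smad3 (3.43 to 9.57), with a list median of 4.97. For the library labelled LAP-Smad2 untreated it was 6.82 (4.03 to 8.18), with a list median of 6.02. The median −log10 q with TGFβ-1 was 5.63 for LAP-Smad2, with a list median of 4.66, and 5.09 for LAP-Smad3, with a list median of 4.43. The median rank was 33.0% of the LAP-Smad2 list and 33.3% of the LAP-Smad3 list. In the library labelled LAP-Smad2 untreated the median −log10 q was 7.03, with a list median of 6.35, and the median rank 44.5%. The only peak of the library labelled LAP-Smad3 untreated had a −log10 q of 5.23, with a list median of 5.42, and a rank of 51.7%. Fold enrichments are set by the depth of each library and its control, and they cannot be compared between lists.

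The promoters of the histone genes (RefSeq, GRCh38.p14, 250 bases before to 50 after the start, 67 of 73 genes matched) hold their own set of sequences, searched on both strands. CCAAT was in 83.6%, beside 36.6% of 15345 promoters of all genes, TATAAA in 64.2% beside 9.63%, and ATTTGCAT, the octamer bound by Oct factors, in 38.8% beside 1.70%. All H2A, H2B and H3 promoters held CCAAT, against 23.1% of H4 promoters, and the octamer was in 68.8% of H2A and 77.8% of H2B promoters. The windows of 200 bases on the summits held these about as often as the whole lists. With TGFβ-1, CCAAT was in 1 of 24 LAP-Smad2 windows (4.17%, beside 7.94% of the list) and in 4 of 46 LAP-Smad3 windows (8.70%, beside 9.51%). TATAAA was in 0 and 2, beside 2.17% and 2.13% of the lists, and ATTTGCAT in 0 and 0, beside 0.186% and 0.182%.

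GTCT or AGAC was in 23 of the 24 LAP-Smad2 summit windows (95.8%), beside 71.6% of that list, and in 36 of the 46 LAP-Smad3 windows (78.3%), beside 85.5%. A sequence of this length is frequent by itself, as 82.8% of all promoters hold it. The palindrome GTCTAGAC was in none of the histone promoters or summit windows, and in 0.222% of all promoters. The GC-rich GGCGCC was in 2.99% of histone promoters, beside 25.5% of all, and in 16.7% and 17.4% of the LAP-Smad2 and LAP-Smad3 summit windows, beside 27.3% and 24.6% of the lists. CAGCTG was in 17.9% of histone promoters and 17.7% of all. It was in 25.0% of the LAP-Smad2 and 17.4% of the LAP-Smad3 summit windows with TGFβ-1, beside 15.5% and 14.3% of the lists. In the library labelled LAP-Smad2 untreated it was in 3 of the 6 windows, beside 8.63% of the list. Among these are the duplicates H3C14 and H3C15, where the same coding sequence is counted at both genes.

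Of 15 genes that regulate histone genes or process their mRNAs, 6 had a LAP-Smad2 peak with TGFβ-1 within 1 kb of the span and 8 a LAP-Smad3 peak, and the untreated libraries had 1 each. The background by span is 45.3% and 60.1%, and 15.9% and 6.84% for the untreated pair. At the 5′ end, 4 had a LAP-Smad2 peak and 4, not all the same genes, a LAP-Smad3 peak, beside 22.8% and 14.9% of all protein-coding genes. NPAT, the organiser of the histone locus body, had a LAP-Smad2 peak of fold enrichment 5.70 that lay 14853 bases inside the gene. It also had 2 LAP-Smad3 peaks, the highest-ranked 32898 bases inside (5.56). SLBP, which binds the stem-loop of histone mRNAs, had a LAP-Smad3 peak 454 bases before its 5′ end (4.75). LSM11, a subunit of the U7 particle that processes histone mRNAs, had LAP-Smad2 peaks, the stronger 521 bases past its 5′ end (4.40), and CCNE1, the cyclin that activates CDK2, had one 643 bases past it (3.65). LSM11 also had a peak in the library labelled LAP-Smad3 untreated, 409 bases past its 5′ end (3.70), and a LAP-Smad3 peak with TGFβ-1 13272 bases inside (4.87). POU2F1, which encodes an octamer-binding factor, had a LAP-Smad2 peak 760 bases past its 5′ end (3.30) and 4 LAP-Smad3 peaks, the highest-ranked 191188 bases inside (7.17). CPSF3, the nuclease that cuts histone mRNAs, had peaks of both Smads 728 and 973 bases before its 5′ end (3.11 and 6.16). ZNF473 had a LAP-Smad3 peak 363 bases past it (5.70), while the highest-ranked peaks of SYMPK and ERI1 lay 43861 and 60602 bases inside. HINFP, a factor of H4 promoters, CASP8AP2, LSM10, CPSF2, CSTF2 and CDK2 had no peak in any list.

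Histone genes outside the naming rule are mostly replication-independent variants. Of 13 examined, 7 had LAP-Smad2 and 6 had LAP-Smad3 peaks with TGFβ-1, and 1 and 3 had peaks in the libraries labelled LAP-Smad2 and LAP-Smad3 untreated. Over all protein-coding genes these shares are 45.3%, 60.1%, 15.9% and 6.84%. H3-3B, one of the genes for variant H3.3, had a LAP-Smad2 peak 986 bases past its 5′ end (fold enrichment 5.09), and H2AX, the variant phosphorylated at DNA breaks, had one at 428 bases (3.98). The library labelled LAP-Smad3 untreated also had a peak at H2AX, at 443 bases (3.23). H2AZ1 had a LAP-Smad3 peak 67 bases past its 5′ end (7.17). The highest-ranked LAP-Smad3 peak of MACROH2A1 lay 314 bases before its 5′ end (6.26), and H3-5 had a LAP-Smad2 peak (3.39) and H2AB1 a LAP-Smad3 peak (5.39) 95 and 132 bases past theirs. CENPA, MACROH2A2 and H2AZ2 had their highest-ranked peaks with TGFβ-1 more than 1 kb inside the gene. H3-3A, H3-4, H2AJ and H2BW1 had none in any list.

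The 20 other protein-coding genes that lie between the histone genes of chromosome 6 had peaks at the 5′ end in 5 (25.0%, 11.2 to 46.9) for LAP-Smad2 with TGFβ-1 and in 7 (35.0%, 18.1 to 56.7) for LAP-Smad3, against 40.0% and 52.7% of the 55 histone genes there. The intervals of the 55 histone genes were 28.1 to 53.2 and 39.8 to 65.3. No interval of the difference was computed, so whether the neighbours differ from the histone genes was not tested. Some of the 20 overlap a histone gene span and share its peaks, as ENSG00000282988 does with H2AC7.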

How the data were processed

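Anti-GFP ChIP-seq of LAP-Smad2 and LAP-Smad3 cells gave 1 deposited peak list per condition. Single-end reads were mapped by the authors with Bowtie2 (hg38) and lengthened to 200 bp, and MACS2 then called peaks at a cut-off of 0.05 on the q-value. The fold enrichment of each peak is a ratio to local background computed by the authors' peak caller. The p-value and q-value were deposited as −log10 values, and the deposited score column, a scaled −log10 q-value, was not needed. The control library, read filters and MACS2 version are not given in the sources used here, and depth is unknown.

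Peaks were assigned to a gene when they lay within 1 kb of its GENCODE release 44 span, or of its 5′ end. GC-matched shares are averages over all other protein-coding genes in the same GC bins, weighted by the number of histone genes in each bin. 50-mers were counted on both strands of hg38. Sequence was read with pysam 0.24.0 and counted with numba 0.67.0 under Python 3.11.15, with tables handled by pandas 2.3.3 and numpy 2.4.6. The interval search, the GC-matched ratio, the Wilson interval, GC content and motif matching passed all 7 checks on simulated data or known values. Other functions, among them the Newcombe interval and the 50-mer count, had no such check. With 1 library per condition no test was run, and Wilson and Newcombe 95% intervals cover counting error only.

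The genes named are those with peaks in at least 2 lists, the 3 highest-ranked per list, those on chromosome 1 or outside the clusters (1 of which is not reported here by name), H2A-H2B pairs that share a peak, and the fixed lists of histone regulators, other histone genes, SMAD2 and SMAD3. The list of other histone genes had 15 symbols, and H2AW and H2BU1 are older names of the histone genes H2AC25 and H2BC26. Further genes with a peak in 1 list or in none (among them H1-1, H1-3, H1-5 and H3C6) were named after their values were seen. The members and lists were chosen with earlier results of these data known.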

Additional observations from a re-analysis of the deposited data

How the results depend on the processing

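Of 133 alternative values for 23 results, 114 stayed within 1.5 times the count or within the interval of the value reported, 18 moved, and 1 difference whose interval had left out 0 changed sign. Histone genes with a peak in the library labelled LAP-Smad2 untreated numbered 17 within 5 kb of the span, 2 with all lists limited to the length of the shortest and 3 with peaks of mostly repeated 50-mers left out. In the library labelled LAP-Smad3 untreated, 1 gene had a peak overlapping its span. With TGFβ-1, limiting the lists left 6 genes for LAP-Smad2 and 9 for LAP-Smad3, and leaving out repeated peaks left 21 and 27. LAP-Smad2 peaks overlapped the span itself at 4 H2B and 2 H4 genes. Without the chromosome 1 genes of mostly repeated 50-mers, chromosome 6 minus chromosome 1 turned to 1.82 percentage points for LAP-Smad2 with TGFβ-1. The difference moved to 38.2 for LAP-Smad3 with TGFβ-1 and went from -4.48 to 10.9 in the library labelled LAP-Smad2 untreated. Both of these started from intervals that included 0. With all lists limited to the shortest length the LAP-Smad3 difference was -31.2 (-57.6 to -8.16).

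The ratio to GC-matched genes moved to 5.55 (genes with a span of at most 5 kb) and 2.81 (single-exon genes) in the library labelled LAP-Smad2 untreated. For LAP-Smad2 with TGFβ-1 it moved to 5.82 (shortest list length), 2.03 (CpG ratio matched as well, with as few as 3 genes in a bin and 72 histone genes) and 2.00 (single-exon genes), and for LAP-Smad3 with TGFβ-1 to 2.50 (within 3 kb) and 11.4 (shortest list length). The cause was not tested.

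The alternatives on canonical transcripts, repeated 50-mers, the larger chromosome 1 block, single-exon genes, copies in the GC-matched ratio and GC content after the 5′ end were chosen after seeing the data. Histone types were varied for the lists with TGFβ-1 only, since the untreated counts were 0 to 3. No paired analysis was possible because each condition has 1 library. Read totals are unknown, so a gene without a peak cannot be called unbound.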
